A study of Mus musculus with 8 samples.

Results

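The T cell receptor complex and the genes of its first signalling steps were followed in sorted lymph node cells of B10.BR mice, an inbred strain. The 10 genes were Cd3d, Cd3e, Cd3g, Cd247, Cd4, Cd2, Cd5, Cd6, Zap70 and Lat, and their members on the array were all probe sets that the array annotation gives to one of these symbols alone. This gave 15 of the 22626 probe sets without controls (10 of 12393 genes with a probe set of their own). Of these, 14 probe sets, which cover all 10 genes, passed a filter on low values (2 or more arrays with a ratio of 1 or higher), as did 13042 probe sets in all. Cells came from naive mice (3 arrays), from mice 7 days after immunization (3 arrays) and from mice 28 days after immunization (2 arrays). Other than time after immunization, all 8 samples share the strain, the tissue and sorting by flow cytometry. The immunogen, the adjuvant, the sorted population, the age of the mice and whether animals were pooled are not given in the sources used here, and no transgene, knockout or other treatment is named. Nor is it given whether each replicate is another animal, so a p-value here covers only the spread among these 8 arrays, which may be technical.

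The T cell receptor recognises peptide on MHC molecules but has no signalling tail of its own. It signals through the CD3 chains, encoded by Cd3d, Cd3e and Cd3g, and through the zeta chain, encoded by Cd247, whose tails carry tyrosine motifs that the kinase Lck phosphorylates. The kinase Zap70 binds these motifs and phosphorylates the membrane adaptor Lat, from which calcium and Ras signalling start. Cd4 binds MHC class II and brings Lck to the receptor, Cd2 is an adhesion and costimulation receptor, and Cd5 and Cd6 are related scavenger-type receptors, of which Cd5 dampens receptor signalling.

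Values are log2 ratios, and for each of the 14 probe sets tested 0 marks its own median over the 8 arrays, so the levels of different genes cannot be compared. In sorted bulk samples, fewer cells of a type and less RNA per cell cannot be told apart. The hybridisation spike-in controls, bacterial RNAs added to each sample, had median log2 ratios between -1.70 and -1.03 on naive replicate 1 and the 3 day 7 arrays, and between 0.64 and 1.41 on naive replicates 2 and 3 and both day 28 arrays. The first principal component (43.7% of the variance) split the arrays in the same way, with naive replicate 1 (-44.5) and the day 7 arrays (-71.7 to -55.4) at one end and the other naive arrays (64.5 and 85.4) and the day 28 arrays (35.2 and 44.3) at the other. Arrays of the first kind form the low spike-in set, the others the high one. Differences inside them are given beside each member: day 7 minus naive in the low set uses naive replicate 1 alone, and day 28 minus naive in the high set uses naive replicates 2 and 3. All day 7 arrays are in the low set and both day 28 arrays in the high one. Day 28 minus day 7 therefore has no difference inside a set, and in it time and the spike-in split coincide. Since ratios carry no level, the presence of T cells could not be checked against their markers, and of 4 probe sets for Cd247, 1 lay near the floor on every array (log2 ratios of -0.97 to -0.83) and was not tested.

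None of the 10 genes passed the test for a difference between groups. In limma, 0 of the 14 member probe sets passed an adjusted p under 0.05 at day 7 against naive, where 1.17% of all probe sets passed, at day 28 against naive (0.322% of all) and at day 28 against day 7 (1.3% of all). At an unadjusted p under 0.05, 1 of 14, that of Lat, was lower at day 7 than in naive cells, where 3.08% of all probe sets were lower and 15.5% differed in either direction. At day 28 against naive 0 of 14 had an unadjusted p under 0.05, against 6.34% of all probe sets. At day 28 against day 7 1 of 14, again Lat, was higher, where 3.47% of all probe sets were higher and 16.5% differed in either direction. The arrays of the 2 groups did not overlap for 0 of 14 at day 7 against naive (22.1% of all), for 1 at day 28 against naive (17.6% of all) and for 1 at day 28 against day 7 (44.9% of all). The median log2 difference over the 14 was -0.21 at day 7 against naive, -0.27 at day 28 against naive and -0.13 at day 28 against day 7, where that over all probe sets tested was 0.11, -0.05 and -0.16. The comparisons share arrays, so these values are not independent of each other.

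**Figure D1:**
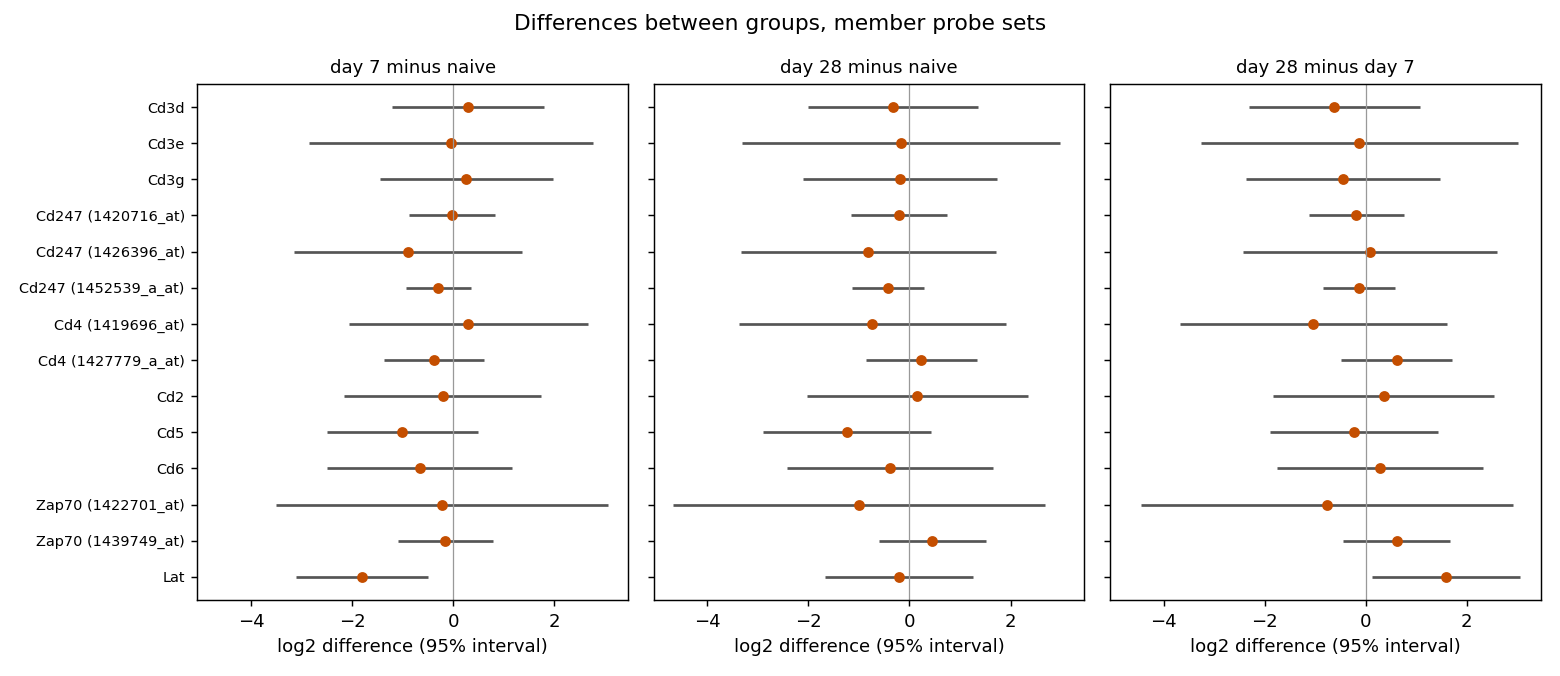
Log2 differences of the 14 member probe sets tested, with 95% confidence intervals from limma, for day 7 minus naive (left), day 28 minus naive (middle) and day 28 minus day 7 (right). Intervals hold 0 for 13, 14 and 13 of the 14 probe sets; the exception at day 7 against naive and at day 28 against day 7 is Lat, whose adjusted p was 0.195 and 0.265.

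A p that misses the threshold does not show that the genes were equal, since the intervals are wide. The half-width of the 95% interval ran from 0.64 to 3.29 on the log2 scale for the 14 member probe sets at day 7 against naive, with a median of 1.02 over all probe sets tested. At day 28, with 2 arrays, it ran from 0.71 to 3.68 in either comparison, with a median of 1.14 over all. The narrowest belonged to a Cd247 probe set (1452539_a_at), with an interval of -0.93 to 0.35 at day 7 against naive. The widest belonged to a Zap70 probe set (1422701_at), with an interval of -3.52 to 3.07 in the same comparison.

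**Figure D2:**
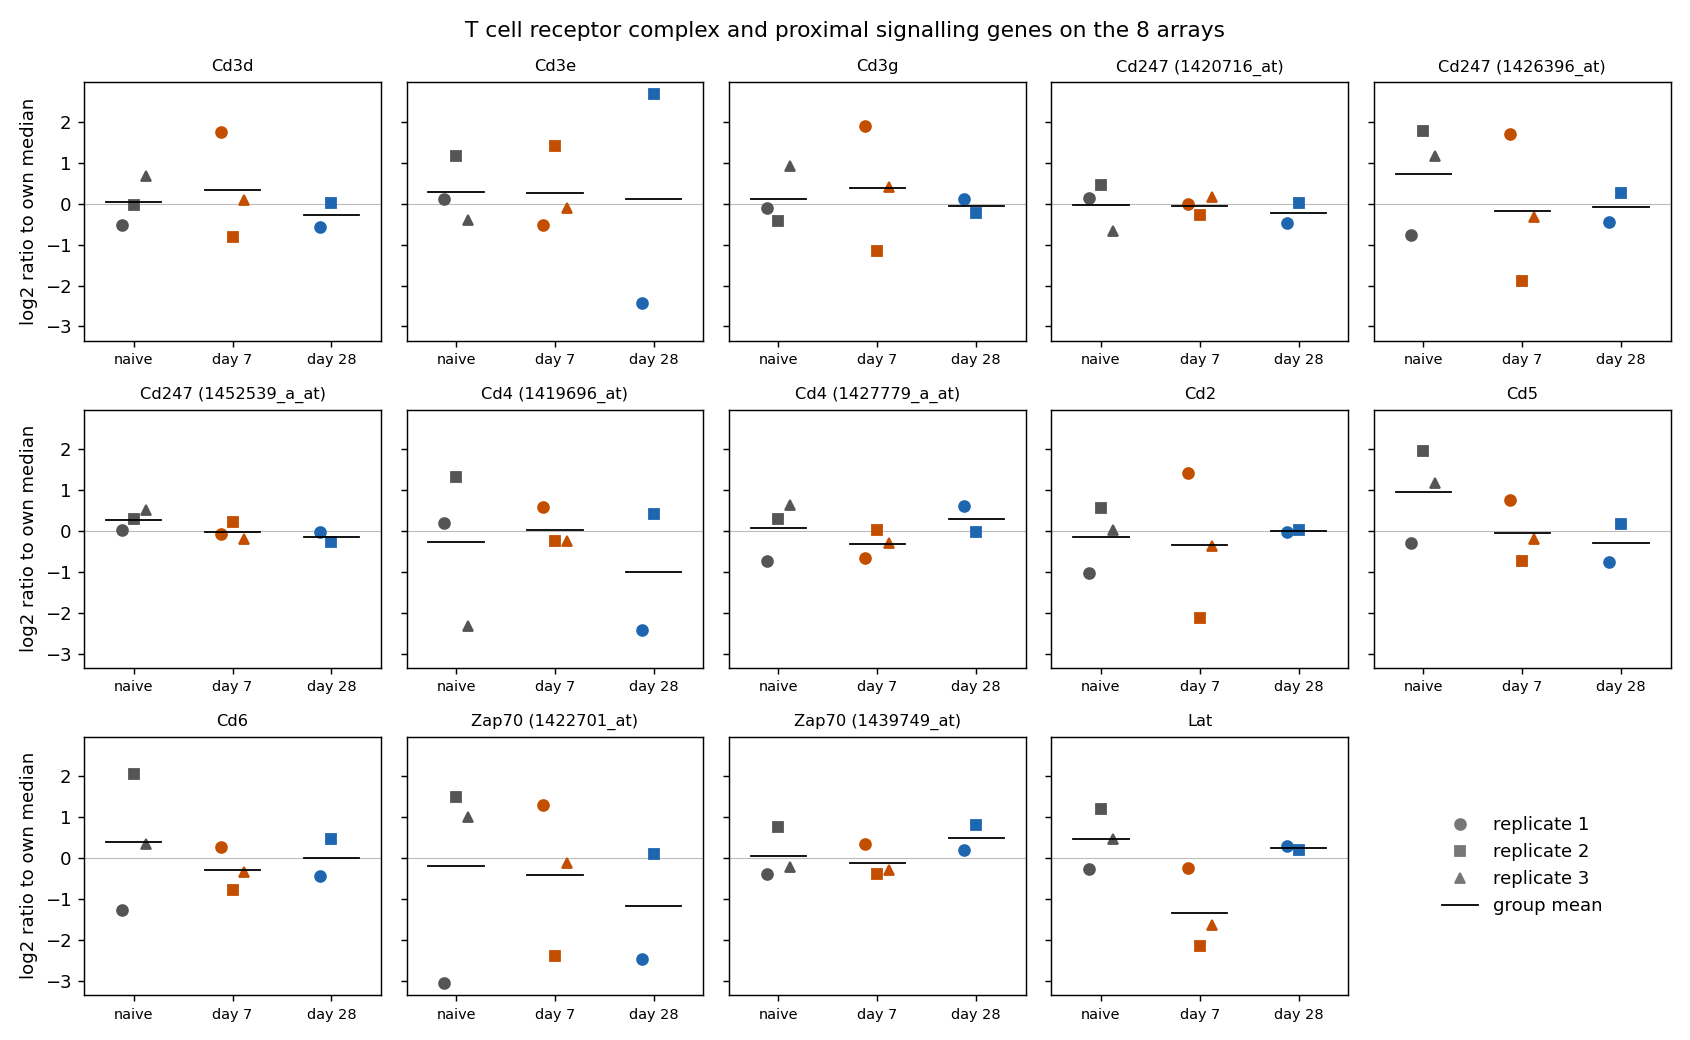
Log2 ratio of each member probe set to its own median (vertical axis) on every array, by group (horizontal axis: naive, day 7, day 28); symbols mark the replicate and the line is the group mean. Cd3e runs from -2.43 to 2.68 between the 2 day 28 arrays, and Zap70 (1422701_at) from -3.06 to 1.50 among the naive arrays.

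Cd3e, the CD3 epsilon chain, which pairs with both of the other CD3 chains, had one of the widest spreads on the array. Its log2 ratios were 0.10, 1.18 and -0.40 in naive cells, -0.51, 1.40 and -0.11 in day 7 cells, and -2.43 and 2.68 in day 28 cells. The 2 day 28 arrays thus held both the lowest and the highest value of all 8, a 34.5-fold gap, and the groups overlapped. The SD within groups was 0.80 in naive cells (n = 3), 1.01 at day 7 (n = 3) and 3.61 at day 28 (n = 2), against medians over all probe sets tested of 0.56, 0.38 and 0.32. The pooled residual SD of Cd3e, 1.81, exceeded that of 99.3% of the probe sets tested, and only 85 of 13042 had a larger one. Its day 7 mean was 0.26 and its naive mean 0.29, a difference of -0.04 ± 1.21 (SE, 3 arrays each, limma adjusted p = 0.992). Its day 28 mean was 0.13, a difference from naive of -0.17 ± 1.35 (limma adjusted p = 0.998, 2 arrays against 3). The day 28 minus naive difference was 2.39 without day 28 replicate 1 and -2.72 without day 28 replicate 2, so 1 array set its sign. Inside the spike-in sets the differences were 0.15 (day 7, low set) and -0.26 (day 28, high set). The array numbered 2 had the highest Cd3e ratio in all 3 groups, but no label says that a shared number means a shared animal, litter or day.

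Cd4, the coreceptor for MHC class II, gave different pictures by its 2 probe sets. By the first (1419696_at), the log2 ratios were 0.21, 1.31 and -2.32 in naive cells, 0.58, -0.24 and -0.24 in day 7 cells, and -2.43 and 0.42 in day 28 cells. Naive replicate 3 and day 28 replicate 1 stood far below the other 6 arrays. The SD was 1.86 in naive cells, 0.48 at day 7 and 2.01 at day 28, and the residual SD of 1.51 exceeded that of 97.7% of the probe sets tested. By the second (1427779_a_at), the log2 ratios were -0.73, 0.29 and 0.64 in naive cells, -0.66, 0.02 and -0.29 in day 7 cells, and 0.61 and -0.02 in day 28 cells. Here the same 2 arrays held the highest values, and the residual SD of 0.54 exceeded that of 47.2% of the probe sets tested. The day 7 minus naive difference was 0.30 ± 1.02 by the first and -0.38 ± 0.42 by the second (SE, 3 arrays each, limma adjusted p = 0.900 and 0.678). The day 28 minus naive difference was -0.74 ± 1.14 by the first and 0.23 ± 0.47 by the second (limma adjusted p = 0.998 for each). In the low set the day 7 differences were -0.17 and 0.42, the opposite signs, and in the high set those of day 28 were -0.50 and -0.17.

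Cd3d and Cd3g, the CD3 delta and gamma chains, each of which pairs with epsilon, varied together, and Cd3e did not vary with them. Cd3d had log2 ratios of -0.51, -0.03 and 0.69 in naive cells, 1.75, -0.80 and 0.09 in day 7 cells, and -0.57 and 0.03 in day 28 cells. Cd3g had -0.12, -0.43 and 0.92 in naive cells, 1.91, -1.15 and 0.41 in day 7 cells, and 0.11 and -0.23 in day 28 cells. Both were highest on day 7 replicate 1 and lowest on day 7 replicate 2, so the day 7 arrays alone covered the range of all 8. The root mean square difference between Cd3d and Cd3g over the 8 arrays was 0.38 on the log2 scale, which placed Cd3d as the 4th nearest of 13041 probe sets to Cd3g, and Cd3g as the 22nd nearest to Cd3d. The median over all probe sets was 1.04 for Cd3g and 0.95 for Cd3d. Between Cd3g and Cd3e it was 1.998 (rank 11393 from Cd3e), and the log2 ratio had the same sign on 0 of 8 arrays. Between Cd3d and Cd3e it was 1.72, with the same sign on 2 of 8 arrays. Likeness by this measure also reflects how widely a probe set varies, and it carries no test. Each of the 14 lies above its median on as many arrays as below it, so these counts of shared signs are always even. The day 7 minus naive difference was 0.30 ± 0.65 for Cd3d and 0.26 ± 0.74 for Cd3g (SE, 3 arrays each, limma adjusted p = 0.840 and 0.880). Without day 7 replicate 1 these differences were -0.40 and -0.50, so that array set their sign. In the low set the day 7 differences were 0.86 for Cd3d and 0.50 for Cd3g, and in the high set the day 28 differences were -0.60 and -0.31.

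**Figure D3:**
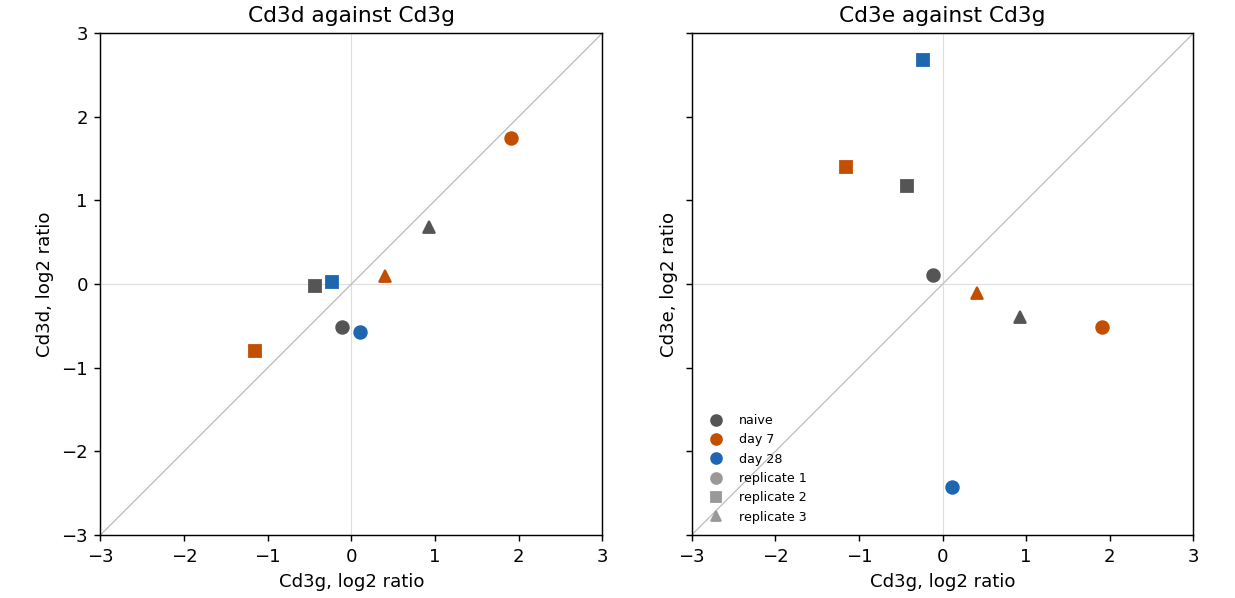
Log2 ratio of Cd3d (left, vertical axis) and of Cd3e (right, vertical axis) against that of Cd3g (horizontal axis) on the 8 arrays, coloured by group with a symbol per replicate; the grey diagonal marks equal values. Cd3d lies along the diagonal with a root mean square difference of 0.38, whereas Cd3e and Cd3g have opposite signs on all 8 arrays.

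The sequences before the starts of these 3 genes, which lie close together on mouse chromosome 9, are shown because Cd3d and Cd3g followed each other on these arrays and Cd3e did not. They come from RefSeq, build GRCm38.p6, each from 250 bases before to 50 after the start, 5′ to 3′ on the gene's strand. Capitals mark GGAA or TTCC, the core bound by Ets factors on either strand, and CANNTG, the E-box, which reads the same pattern on both strands; neighbouring or overlapping matches run together.
Cd3g, chr9:44980382-44980681, minus strand: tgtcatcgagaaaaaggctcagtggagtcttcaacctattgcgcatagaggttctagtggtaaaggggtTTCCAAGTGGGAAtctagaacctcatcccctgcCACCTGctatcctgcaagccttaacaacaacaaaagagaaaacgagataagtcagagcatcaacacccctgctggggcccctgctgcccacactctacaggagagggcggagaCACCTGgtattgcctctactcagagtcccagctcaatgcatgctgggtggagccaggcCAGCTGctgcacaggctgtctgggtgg
Cd3d, chr9:44981536-44981835, plus strand: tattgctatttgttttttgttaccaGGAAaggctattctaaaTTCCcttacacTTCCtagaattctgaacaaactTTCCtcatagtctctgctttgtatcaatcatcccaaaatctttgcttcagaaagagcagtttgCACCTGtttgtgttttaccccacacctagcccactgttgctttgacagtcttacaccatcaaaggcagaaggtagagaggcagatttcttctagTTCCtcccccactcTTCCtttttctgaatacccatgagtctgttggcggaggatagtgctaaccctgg
Cd3e, chr9:45009562-45009861, minus strand: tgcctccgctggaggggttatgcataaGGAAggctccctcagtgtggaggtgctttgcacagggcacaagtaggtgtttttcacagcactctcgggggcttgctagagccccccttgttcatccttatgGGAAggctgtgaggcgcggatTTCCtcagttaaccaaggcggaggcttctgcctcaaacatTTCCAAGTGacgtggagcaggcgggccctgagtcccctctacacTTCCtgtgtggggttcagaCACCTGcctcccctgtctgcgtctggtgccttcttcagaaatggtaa
GGAA or TTCC occurred 2 times in the Cd3g window, 6 times in that of Cd3d and 5 times in that of Cd3e, and CANNTG 4, 1 and 2 times. Of 32851 RefSeq promoter windows of the same length, 96.0% held the first motif and 72.3% the second, so their presence sets none of the 3 genes apart. Neither TATAAA nor TGTGGT, searched on both strands, occurred in any of the 3 (13.6% and 16.8% of all windows). A match is a run of letters and not a bound site, and these data hold no measure of binding. Of the 10 genes, 7 had a promoter entry.

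Cd247, the zeta chain, which carries most of the receptor's tyrosine motifs, was read by 3 tested probe sets that did not move alike. The most variable (1426396_at) had log2 ratios of -0.77, 1.77 and 1.17 in naive cells, 1.70, -1.89 and -0.33 in day 7 cells, and -0.45 and 0.27 in day 28 cells. The other tested probe sets stayed between -0.67 and 0.50 on all 8 arrays. Residual SDs were 1.44 for the most variable, and 0.43 (1420716_at) and 0.22 (1452539_a_at) for the others, above those of 96.9%, 34.2% and 8.29% of the probe sets tested. By the third (1452539_a_at) the day 28 arrays, at -0.03 and -0.27, lay below all naive arrays, at 0.03, 0.30 and 0.50. It was the only one of the 14 whose groups did not overlap at day 28 against naive, where 9.88% of all probe sets lay lower without overlap, and its difference of -0.43 ± 0.31 did not pass (SE, 2 arrays against 3, limma adjusted p = 0.993). Its differences inside the sets were -0.05 (day 7, low set) and -0.55 (day 28, high set). Those of the most variable probe set were 0.60 and -1.56, against -0.90 and -0.81 with all arrays, and those of 1420716_at were -0.19 and -0.13.

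Zap70, the kinase that docks on the phosphorylated chains, had the widest spread of the 14. By probe set 1422701_at its log2 ratios were -3.06, 1.50 and 1.02 in naive cells, 1.30, -2.40 and -0.12 in day 7 cells, and -2.46 and 0.11 in day 28 cells. One array in each group stood far below the others: naive replicate 1, day 7 replicate 2 and day 28 replicate 1. The residual SD of 2.14 exceeded that of 99.8% of the probe sets tested, with 28 above it. The other Zap70 probe set (1439749_at) ran only from -0.39 to 0.80, was lowest on naive replicate 1 and day 7 replicate 2, and had a residual SD of 0.51. At day 7 against naive the differences were -0.22 ± 1.42 and -0.16 ± 0.41 by the 2 probe sets (SE, 3 arrays each, limma adjusted p = 0.952 and 0.867). At day 28 against naive they were -0.99 ± 1.59 and 0.45 ± 0.45 (limma adjusted p = 0.998 for each), with opposite signs. In the low set the day 7 differences were 2.66 and 0.28, against those negative values, and in the high set the day 28 differences were -2.43 and 0.23.

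Lat, the adaptor that Zap70 phosphorylates, came nearest to a difference between groups. Its log2 ratios were -0.27, 1.20 and 0.46 in naive cells, -0.23, -2.16 and -1.64 in day 7 cells, and 0.29 and 0.20 in day 28 cells. Day 7 replicates 2 and 3 lay below all other arrays, while day 7 replicate 1 lay just above naive replicate 1. The mean was -1.35 ± 0.997 in day 7 cells and 0.46 ± 0.73 in naive cells (SD, n = 3 each), a difference of -1.81 ± 0.57 (SE) with a 95% interval of -3.12 to -0.49 and a limma adjusted p = 0.195. Leaving out each array in turn moved this difference between -2.36 and -1.40 (adjusted p from 0.0521 to 0.493). At day 28 both arrays lay above all 3 day 7 arrays, as was so for 15.2% of all probe sets in that direction. These groups lie in different spike-in sets, so time and that split cannot be told apart here. The day 28 minus day 7 difference was 1.59 ± 0.63 (SE, 2 arrays against 3, limma adjusted p = 0.265), and the day 28 minus naive difference was -0.21 ± 0.63 (limma adjusted p = 0.998). Inside the sets the Lat differences were -1.07 (day 7, low set) and -0.58 (day 28, high set).

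Cd2, Cd5 and Cd6, surface receptors that tune receptor signalling, shared part of the pattern of Zap70. Cd2 had log2 ratios of -1.03, 0.56 and 0.02 in naive cells, 1.43, -2.12 and -0.37 in day 7 cells, and -0.02 and 0.03 in day 28 cells. Cd5 had -0.29, 1.95 and 1.18 in naive cells, 0.75, -0.73 and -0.21 in day 7 cells, and -0.76 and 0.18 in day 28 cells. Cd6 had -1.27, 2.07 and 0.35 in naive cells, 0.28, -0.78 and -0.35 in day 7 cells, and -0.45 and 0.46 in day 28 cells. All 3 were lowest in their groups on naive replicate 1, day 7 replicate 2 and day 28 replicate 1. Cd5 and Cd6, both on mouse chromosome 19, had the same sign on 8 of 8 arrays and a root mean square difference of 0.51, which placed Cd5 61st of 13041 from Cd6 and Cd6 105th from Cd5. The most variable Cd247 probe set and Zap70 (1422701_at) also had the same signs as Cd2, Cd5 and Cd6 on 8 of 8 arrays. Cd5 had the largest difference of the 3, -1.01 ± 0.64 at day 7 against naive and -1.24 ± 0.72 at day 28 against naive (SE, limma adjusted p = 0.473 and 0.935). Without naive replicate 1 these became -1.63 (adjusted p = 0.0955) and -1.86, and without naive replicate 2 they became -0.51 and -0.74. In the low set the day 7 difference of Cd5 was 0.23, the opposite direction, and in the high set its day 28 difference was -1.86. Those of Cd2 were 0.68 and -0.29, against -0.21 and 0.15 with all arrays, and those of Cd6 were 0.99 and -1.21, against -0.67 and -0.38.

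The same arrays were low for most members. Among the naive arrays, 10 of the 14 probe sets were lowest on replicate 1 and 10 were highest on replicate 2, where 29.7% and 28.2% of all probe sets tested were. At day 7, 10 of 14 were highest on replicate 1 and 10 were lowest on replicate 2 (44.4% and 43.0% of all). At day 28, 10 of 14 were lower on replicate 1 (48.5% of all). The median log2 ratio over the 14 was -0.34, 0.97 and 0.48 in naive cells, 0.47, -0.75 and -0.22 in day 7 cells, and -0.45 and 0.14 in day 28 cells. Over all probe sets tested, the median per array stayed between -0.19 and 0.16. The genes were chosen together as a pathway, and several overlap in the cells that express them, so these counts are a description. In residual SD, 10 of the 14 exceeded the median of all probe sets tested and 6 exceeded the 90th percentile.

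**Figure D4:**
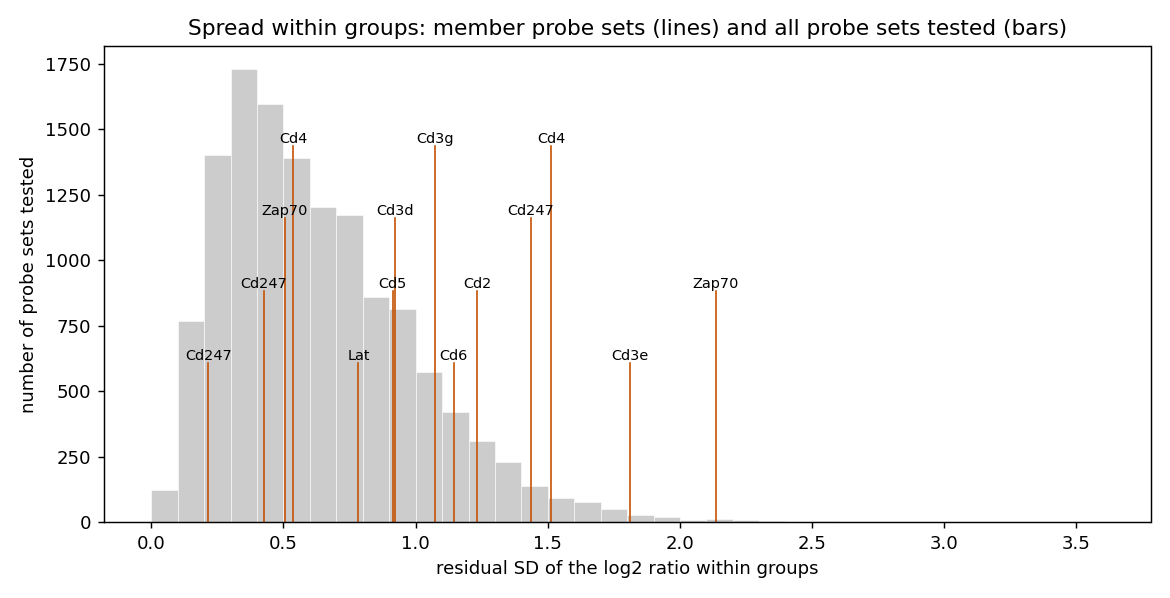
Residual SD of the log2 ratio within groups (horizontal axis) for all 13042 probe sets tested (grey bars, number per bin of 0.1) and for the 14 member probe sets (lines, whose heights only separate the names). Zap70 (1422701_at, 2.14) and Cd3e (1.81) lie in the far right tail, and 1 Cd247 probe set (1452539_a_at, 0.22) lies near the left end.

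Of the 14 member probe sets, 9 had the opposite sign in the low spike-in set at day 7 against naive, and 2 in the high set at day 28 against naive. The median difference over the 14 was 0.35 in the low set, against -0.21 with all arrays, and -0.53 in the high set, against -0.27 with all arrays. The low set holds a single naive array, and the part of the spike-in split in these differences was not tested. The 3′ minus 5′ log2 difference of Gapdh, which reflects RNA quality, was 0.54, 0.17 and 0.57 in naive cells, -1.04, -1.18 and 1.17 in day 7 cells, and -1.09 and 0.02 in day 28 cells. That of Actb was 0.93, 0.05 and -0.01 in naive cells, -0.42, 1.27 and 2.76 in day 7 cells, and -1.08 and -0.05 in day 28 cells. By Actb, naive replicate 1 and day 7 replicate 2, where most members were lowest, stood above naive replicate 2 and day 7 replicate 1, where most were highest. At day 28 the order was the other way. By Gapdh the order at day 7 was also the other way, with -1.18 on replicate 2 and -1.04 on replicate 1. Day 7 replicate 3 stood highest by both genes, and 2 of the 14 members were lowest in their group there. Both ends are ratios without a level, so these differences only compare arrays. The part of RNA quality in the members' values was not tested.

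Markers of other cells passed the test at day 28, where 0 of the 14 members did. Of 17 tested B cell marker probe sets, 6 rose at day 28 against naive and 8 against day 7 in limma, with 0 lower. Of all probe sets, 0.322% and 1.3% passed in either direction. None of the tested Ighm probe sets in this list passed. Of the 17, 4 needed the day 28 arrays to meet the filter on low values, so each had to reach a ratio of 1 on at least 1 of them. Among these, the probe sets of Fcer2a and Blnk passed in both comparisons and those of Ighm did not. Without these 4, 4 of 13 rose at day 28 against naive and 6 of 13 against day 7. The median log2 ratio of the B cell markers was 1.81 and 1.79 on the day 28 arrays, between -0.21 and -0.05 at day 7, and between -0.31 and 0.00 on the naive arrays. That of 7 CD8 T cell and NK cell markers was 1.22 and 0.32 at day 28, between -0.13 and 0.29 at day 7 and between -0.56 and -0.47 on the naive arrays. Of 9 monocyte and macrophage markers 0 passed, and their median was 0.99 and 0.19 at day 28, between -0.31 and 0.42 at day 7 and between -0.80 and -0.06 on the naive arrays. Of the CD8 T cell and NK cell markers, which include Cd8a and Cd8b1, 1 rose at day 7 against naive (1.17% of all probe sets in either direction). At day 28, 1 rose against naive and 2 against day 7 (0.322% and 1.3% of all). Cd8b1, called in both, needed the day 28 arrays to meet the filter. Of 3 probe sets for the further T cell markers Thy1 and Cd28, 0 passed. On day 7 replicate 1, where most members were highest among the day 7 arrays, those of Cd28 stood at 3.35 and 1.84. The first had -0.39, -0.24 and 0.24 in naive cells, and 3.35, -0.67 and 1.77 at day 7. The second had 0.92, -0.96 and -1.89 in naive cells, and 1.84, 0.50 and 0.08 at day 7. At day 28 the first had -0.43 and 0.21, and the second -2.16 and -0.08. Naive replicate 1, where most members were lowest, was the lowest naive array by the first and the highest by the second. Thy1 was not highest on day 7 replicate 1, with -0.33, -0.39 and -0.27 at day 7. It had 0.22, 1.76 and 1.35 in naive cells, and -0.38 and 0.58 at day 28. In each group Thy1 was lowest on the array where most members were lowest, though by little at day 7. Day 28 replicate 1, the lower of the day 28 arrays for 10 of the 14 members, was the higher one by the CD8 T cell and NK cell markers and by the monocyte and macrophage markers. Of the dendritic cell and erythroid lists 1 probe set each was tested, and of the stroma and endothelium list 0. The part of other cells in the members' values was not tested.

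**Figure D5:**
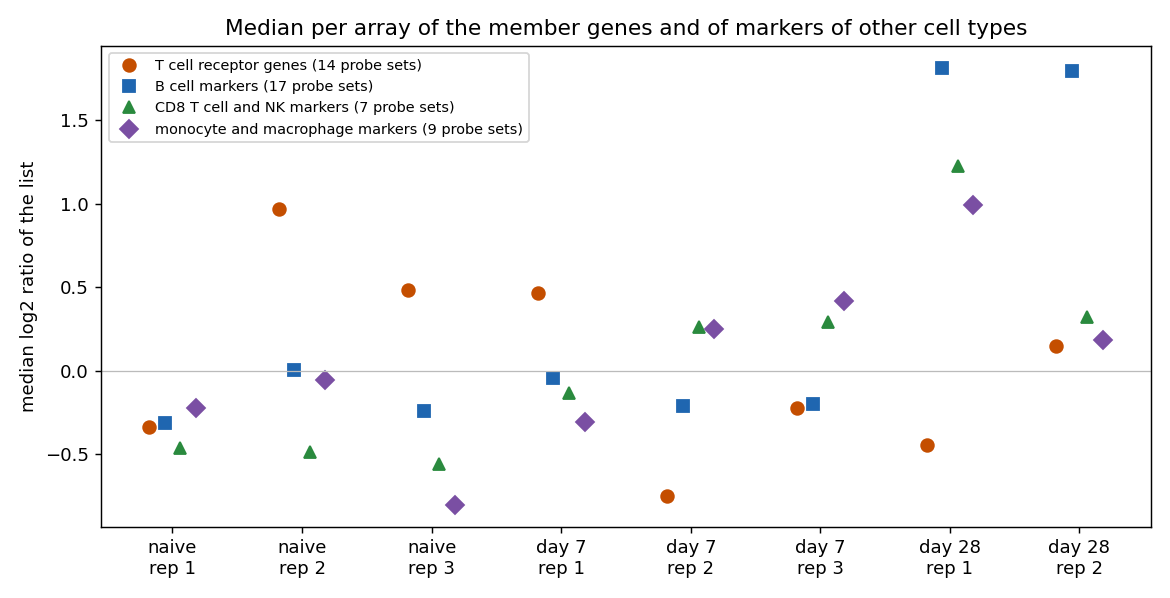
Median log2 ratio (vertical axis) on each of the 8 arrays (horizontal axis) of the 14 member probe sets and of the markers of B cells, of CD8 T cells and NK cells, and of monocytes and macrophages. B cell markers stand at 1.81 and 1.79 on the day 28 arrays and between -0.31 and 0.00 on the others, whereas the members' median is lowest on day 7 replicate 2 (-0.75) and highest on naive replicate 2 (0.97).

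Other genes of receptor signalling were read from 5 lists with 71 tested probe sets of 48 genes. At day 7 against naive, 0 of 71 passed in limma, where 1.17% of all probe sets did, with 11 higher and 5 lower at an unadjusted p under 0.05 (12.4% and 3.08% of all). At day 28 against naive 2 rose and 0 fell (0.322% of all in either direction), and at day 28 against day 7 5 rose and 1 fell (1.3% of all). Both calls against naive and 3 of the 6 against day 7, those of Cd8b1 and Syk, were of probe sets that needed the day 28 arrays to meet the filter. The median difference over the 71 was 0.16, -0.01 and -0.30 in these comparisons. Of the 10 probe sets for kinases and phosphatases, 1 rose at day 28 against naive and 3 at day 28 against day 7. Of the 4 for coreceptors and Cd28, which gives the second signal, 1 rose at day 28 against naive and 2 at day 28 against day 7. Of the 15 for negative regulators, 1 fell at day 28 against day 7. Of 19 for adaptors and effectors and 23 for downstream enzymes and factors, 0 passed in limma in any of the 3 comparisons. At an unadjusted p under 0.05, 3 of the 19 were higher and 1 lower at day 7 against naive, 0 higher and 2 lower at day 28 against naive, and 1 higher and 1 lower at day 28 against day 7. Of the 23, 3 were higher and 1 lower, 0 higher and 1 lower, and 1 higher and 4 lower in the same comparisons. Over all probe sets, 15.5%, 6.34% and 16.5% had such a p in either direction.

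The genes that passed were Syk, both CD8 chains, Tec and Egr2. Syk, the relative of Zap70 that serves the B cell receptor, had log2 ratios (1418261_at) of 0.26, -0.91 and -0.70 in naive cells, -0.46, -0.11 and -0.55 in day 7 cells, and 4.65 and 3.02 in day 28 cells. By this probe set Syk rose at day 28 by 4.29 ± 0.55 against naive and by 4.21 ± 0.55 against day 7 (SE, limma adjusted p = 0.0274 and 0.0178). The probe set needed the day 28 arrays to meet the filter on low values, so it was tested only because of its values there. Its second probe set (1418262_at) rose by 2.05 ± 0.34 against day 7 (adjusted p = 0.0379) and had a difference of 1.82 ± 0.34 against naive (adjusted p = 0.134). A further Syk probe set (1425797_a_at) did not meet the filter and showed no such rise. It stayed between -0.37 and 0.20 on all 8 arrays, with -0.34 and -0.17 at day 28. Cd8b1, a chain of the coreceptor for MHC class I, had log2 ratios of -0.13, -0.06 and -0.14 in naive cells, -0.13, -0.44 and -0.26 in day 7 cells, and 4.07 and 3.10 in day 28 cells. It rose by 3.70 ± 0.35 against naive and by 3.87 ± 0.35 against day 7 (limma adjusted p = 0.00936 and 0.00559). Cd8b1 too was tested only because of its day 28 values, since it lay below a ratio of 1 on all other arrays. Cd8a, the other CD8 chain, rose by 3.22 ± 0.55 against day 7 by probe set 1425335_at (limma adjusted p = 0.0433). Its other probe set (1451673_at) did not meet the filter and stayed between -0.81 and -0.75 on all 8 arrays. Tec, a non-receptor tyrosine kinase, rose by 3.15 ± 0.54 at day 28 against day 7 (adjusted p = 0.0427). Egr2, a transcription factor that receptor signalling induces and that restrains it, fell by 2.55 on the log2 scale at day 28 against day 7 (adjusted p = 0.0404), with 1.57, 1.90 and 1.53 at day 7 and -0.61 and -1.16 at day 28. The second Egr2 probe set (1427683_at) had a difference of -2.87 ± 0.82 (SE, 2 arrays against 3, limma adjusted p = 0.148). The B cell markers given above were high on the same day 28 arrays as Syk and the CD8 chains, and their part in these differences was not tested. The comparisons of day 28 with day 7 also cross the spike-in sets, so time and that split coincide in them.

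Most of these calls were lost when single arrays were left out, while the differences kept their sign. Cd8b1 against day 7 was called with each array left out in turn (3.38 to 4.35, adjusted p from 0.00685 to 0.0450), but it was lost with the replicate number as a block (adjusted p = 0.0565) and after adding a term for the spike-in sets (adjusted p = 0.142). Against naive it was lost without naive replicate 3 (adjusted p = 0.0505) or day 28 replicate 1 (adjusted p = 0.0571). Syk (1418261_at) against day 7 was lost without any of the day 7 arrays or day 28 replicate 1 (adjusted p up to 0.107). Syk against naive and Cd8a were each lost without 6 of the 8 arrays, the exceptions being naive replicate 1 and day 28 replicate 2. Tec kept its call only without naive replicate 1 or day 7 replicate 1, and Egr2 and the second Syk probe set kept theirs only without naive replicate 1. Over these fits, the difference against day 7 ran from 3.40 to 5.03 for Syk (1418261_at), from 1.86 to 2.24 for its second probe set, from 2.24 to 4.20 for Cd8a, from 2.67 to 3.62 for Tec and from -2.82 to -2.28 for Egr2. The term for the spike-in sets ended each of the 6 calls against day 7, with differences of 3.84 for Cd8b1, 3.85 for Cd8a, 5.27 and 2.74 for Syk, 3.62 for Tec and -1.44 for Egr2. With this term, that comparison is linked only through the naive arrays, of which the low set holds 1. Both calls against naive were kept, at 3.69 for Cd8b1 and 4.64 for Syk (1418261_at, limma adjusted p = 0.0189 and 0.0235). For day 28 against naive, this term gave the same values as leaving out naive replicate 1. It is therefore no further check beside that fit, and both probe sets were tested only because of their day 28 values.

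Lcp2, Fyn and Ptprc, which act beside the members, did not pass. Lcp2, the adaptor SLP-76 that works beside Lat, had log2 ratios (1418641_at) of -0.04, -1.10 and -1.22 in naive cells, 2.27, 0.05 and 0.42 in day 7 cells, and -0.70 and 0.03 in day 28 cells. Its day 7 arrays lay above all naive arrays, as was so for 13.4% of all probe sets, with a difference of 1.70 ± 0.63 (SE, 3 arrays each, limma adjusted p = 0.265). Its second probe set (1418642_at) had a difference of 0.38 ± 0.36 (adjusted p = 0.625). Fyn, a kinase related to Lck, had log2 ratios (1448765_at) of 0.35, -1.63 and -1.78 in naive cells, 1.03, 0.77 and 0.83 in day 7 cells, and -0.46 and -1.52 in day 28 cells. The day 7 arrays stood above all others, with a difference from naive of 1.89 ± 0.59 (limma adjusted p = 0.194), while its other probe set (1417558_at) had 0.48 ± 0.64 (adjusted p = 0.725). Without naive replicate 1, the one naive array of the low spike-in set, the first passed (2.58, adjusted p = 0.00957), and after adding a term for the spike-in sets it was 0.53 (adjusted p = 0.923). Ptprc, which encodes the phosphatase CD45 that keeps Lck active, had a day 7 minus naive difference of 1.36 ± 0.69 (adjusted p = 0.384), 2.14 without naive replicate 1 (adjusted p = 0.0270) and -0.20 after adding a term for the spike-in sets (adjusted p = 0.9996). Lck was not analysed here.

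Many genes that are no members lay nearer to Cd3e and Cd4 over the 8 arrays than any member did. For Cd3e, the 5 nearest non-members by root mean square difference were Coro1c (0.71), an actin-binding coronin, Vdac1 (0.72), a mitochondrial channel, Agpat1 (0.74), an enzyme of phospholipid synthesis, Calr (0.76), a chaperone, and Nfyc (0.80), a subunit of the factor NF-Y, where the median over 13041 probe sets was 1.60. The nearest member was Cd4 (1419696_at) at 1.26, rank 411. For Cd4 (1419696_at), whose nearest member was Cd247 (1420716_at) at 0.997, rank 389, they were Ints3 (0.43), a subunit of the Integrator complex, Adipor2 (0.48), an adiponectin receptor, Stat6 (0.53), which relays interleukin-4 signals, Rcc2 (0.57), a regulator of mitosis, and Dbnl (0.60), an actin-binding adaptor, where the median was 1.40. These 5 were low on naive replicate 3 and day 28 replicate 1, as Cd4 was, with log2 ratios of -1.93 to -1.35 and -2.37 to -1.24. For Cd3e all 5 were low on day 28 replicate 1 (-2.51 to -1.03) and high on day 28 replicate 2 (1.34 to 3.27). These genes were picked for their small differences from Cd3e or Cd4, so being low or high on the same arrays follows from that choice. The measure of likeness covers 8 arrays and carries no test.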

How the data were processed

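RNA of sorted lymph node cells was measured on 8 Affymetrix arrays. The deposited values are linear ratios, made with GCRMA per the submitters' processing notes (no version). No source used here gives the scaling; in the files, 47.9% of the 22690 probe sets have a median of 1 over the 8 arrays and none a higher one. The fit used log2 ratios, which understate changes near the floor. Probe sets with 2 or more arrays at a ratio of 1 or higher (13042 of 22626 without controls) entered a fit in limma 3.58.1 (R 4.3.3) with 1 mean per group over all 8 arrays, two-sided, with Benjamini-Hochberg adjustment over all probe sets and a threshold of 0.05. The fit was tested on simulated data. Probe sets with 1 symbol (20380) were used. All 10 symbols and gene identifiers matched RefSeq (GRCm38.p6). The members, the lists and the filter were chosen with earlier results of these data known. Genes named were the members, list genes past the threshold, Lck, Lcp2, Ptprc and Fyn, and the 5 nearest to Cd3e and Cd4; 1 further gene is not reported here. The number of arrays limits the precision. Alternatives were no or a stricter filter, quantile normalization, median centring, a robust prior, only 2 groups, a replicate block, a spike-in term, a pseudocount of 0.1, a threshold of 0.01 and leaving out each array.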

Additional observations from a re-analysis of the deposited data

How the results depend on the processing

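Across the 17 alternatives, arrays left out included, 0 of 714 refitted member differences passed an adjusted p under 0.05. The counts over all probe sets moved more. With no filter, 94 passed at day 7 against naive. With the stricter filter, 76 passed at day 7 against naive, 26 passed at day 28 against naive and 62 passed at day 28 against day 7. With quantile normalization, 257 passed at day 28 against day 7. With only the 2 groups compared, 68 passed at day 7 against naive, 0 passed at day 28 against naive and 591 passed at day 28 against day 7. With the replicate block, 16 passed at day 7 against naive, 9 passed at day 28 against naive and 15 passed at day 28 against day 7. With the spike-in term, 14 passed at day 7 against naive, 57 passed at day 28 against naive and 0 passed at day 28 against day 7. At an adjusted p under 0.01, 31 passed at day 7 against naive, 13 passed at day 28 against naive and 28 passed at day 28 against day 7. With 1 array left out, 17 to 1727 passed at day 7 against naive. With 1 array left out, 2 to 57 passed at day 28 against naive. With 1 array left out, 25 to 810 passed at day 28 against day 7. The lowest counts came without naive replicate 2, day 28 replicate 1 and day 7 replicate 3, in the order of these comparisons, and the highest without naive replicate 1. Of the 714 refitted member differences, 71 had the opposite sign, and the cause was not tested. The values that follow also cover Fyn, Lcp2 and Ptprc, which are not members and are not counted in the 71. With quantile normalization, day 7 minus naive was -0.16 for Cd4 (1419696_at). With quantile normalization, day 28 minus naive was -0.21 for Fyn (1448765_at). With quantile normalization, day 28 minus day 7 was 0.19 for Cd3e, 0.0024 for Cd247 (1420716_at), 0.045 for Cd247 (1452539_a_at), 0.097 for Cd5 and 0.26 for Lcp2 (1418642_at). With median centring, day 28 minus day 7 was 0.0066 for Cd3e and 0.062 for Lcp2 (1418642_at). With the replicate block, day 28 minus naive was 0.017 for Cd3g and -0.17 for Fyn (1448765_at). With the spike-in term, day 7 minus naive was 0.15 for Cd3e, 0.60 for Cd247 (1426396_at), -0.17 for Cd4 (1419696_at), 0.42 for Cd4 (1427779_a_at), 0.68 for Cd2, 0.23 for Cd5, 0.99 for Cd6, 2.66 for Zap70 (1422701_at), 0.28 for Zap70 (1439749_at) and -0.20 for Ptprc. With the spike-in term, day 28 minus naive was -0.17 for Cd4 (1427779_a_at) and -0.29 for Cd2. With the spike-in term, day 28 minus day 7 was 0.061 for Cd247 (1420716_at), -2.16 for Cd247 (1426396_at), -0.59 for Cd4 (1427779_a_at), -0.96 for Cd2, -2.19 for Cd6, -0.043 for Zap70 (1439749_at), 1.97 for Ptprc and 0.19 for Fyn (1448765_at). With a pseudocount of 0.1, day 28 minus naive was 0.032 for Cd3e and -0.0053 for Fyn (1448765_at). With a pseudocount of 0.1, day 28 minus day 7 was 0.0599 for Cd3e. With 1 array left out, day 7 minus naive ran from -0.40 to 0.87 for Cd3d, -0.61 to 0.41 for Cd3e, -0.50 to 1.03 for Cd3g, -0.35 to 0.22 for Cd247 (1420716_at), -0.73 to 1.09 for Cd4 (1419696_at), -1.10 to 0.68 for Cd2, -1.49 to 0.18 for Cd6, -1.66 to 0.77 for Zap70 (1422701_at), -0.39 to 0.20 for Zap70 (1439749_at) and -0.064 to 0.90 for Fyn (1417558_at). With 1 array left out, day 28 minus naive ran from -2.72 to 2.39 for Cd3e, -0.47 to 0.21 for Cd3g, -0.53 to 0.037 for Cd247 (1420716_at), -2.16 to 0.68 for Cd4 (1419696_at), -0.17 to 0.55 for Cd4 (1427779_a_at), -0.29 to 0.51 for Cd2, -1.21 to 0.46 for Cd6, -2.43 to 0.29 for Zap70 (1422701_at), -0.58 to 0.15 for Lat, -1.26 to 0.12 for Fyn (1417558_at) and -0.50 to 0.71 for Fyn (1448765_at). With 1 array left out, day 28 minus day 7 ran from -1.20 to 0.081 for Cd3d, -2.69 to 2.42 for Cd3e, -1.22 to 0.31 for Cd3g, -0.43 to 0.0599 for Cd247 (1420716_at), -0.78 to 1.02 for Cd247 (1426396_at), -2.46 to 0.38 for Cd4 (1419696_at), -0.53 to 1.25 for Cd2, -0.70 to 0.24 for Cd5, -0.17 to 0.74 for Cd6, -2.05 to 0.51 for Zap70 (1422701_at), -0.32 to 0.25 for Lcp2 (1418642_at) and -0.78 to 0.023 for Ptprc. The replicate block changed no call of a member. It ended the calls of Cd8b1, Cd8a, Syk, Tec and Egr2 given above, with differences between 1.99 and 4.18 for the rises and of -2.68 for Egr2. The spike-in term ended those against day 7, with Egr2 at -1.44, and kept those of Cd8b1 and Syk (1418261_at) against naive. For day 28 against naive it gave the same values as leaving out naive replicate 1, so these alternatives are not separate there. With no filter the calls of Syk (1418261_at) against naive and of Cd8a, Tec and Egr2 were lost. With the stricter filter those of Cd8a, Tec and Egr2 were lost (Cd8b1 and the called Syk probe sets did not meet it and were not tested). With only the 2 groups compared, those of Cd8b1 and Syk (1418261_at) against naive and of Cd8a were lost. Same-numbered arrays did not all deviate together: their deviations from the group means correlated between -0.36 and 0.17. With 2 arrays at day 28 and 1 naive array in the low spike-in set, differences of the size seen for Zap70 and Cd3e were not resolved.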
